A study of Homo sapiens with 8 samples.

Results

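The subunits of the mitochondrial respiratory chain and ATP synthase were examined in 8 RNA-seq libraries of PC3, an established line from a human prostate cancer, of which 4 carry the label siCtrl and 4 the label siPRMT7. Members were all protein-coding genes on the mitochondrial chromosome, together with protein-coding genes whose symbols follow the nomenclature of complex I (NDUFA, NDUFB, NDUFC, NDUFS and NDUFV), complex II (SDHA to SDHD), complex III (UQCR), complex IV (COX4 to COX8 followed by A, B or C) and complex V (ATP5F, ATP5M and ATP5P). The choice used no measured value. It gave 99 of the 58735 genes in the deposited table, 13 of them mitochondrially encoded and 86 nuclear-encoded. The symbol pattern leaves out COX4I1, COX4I2, CYC1, CYCS, NDUFAB1 and ATP5IF1, which are described separately. NDUFA4, first assigned to complex I and now known as a complex IV subunit, was counted with complex IV.

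Both groups were PC3 cells transfected by lipofection and cultured for a further 48 h, and poly(A)-selected RNA was sequenced. The siCtrl libraries are labelled wild type and the siPRMT7 libraries as a knockdown of PRMT7, a protein arginine methyltransferase. Sample titles use the prefix si, whereas the library names of the same samples use the prefix sh. The labels name no separate cultures, so p-values cover only the spread between these libraries, which may be technical.

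The chain moves electrons from NADH through complex I, or from succinate through complex II, to complex III, cytochrome c and complex IV, and the proton gradient so formed drives ATP synthesis by complex V. Its subunits come from both genomes: the mitochondrial chromosome encodes core subunits of complexes I, III, IV and V, and the nucleus encodes every subunit of complex II and all remaining subunits. The mitochondrial mRNAs are cut from long transcripts that span most of either strand, so their levels share a source and are not independent of each other.

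PRMT7 was at 5.11 ± 0.183 FPKM in the siCtrl group and 4.69 ± 0.298 FPKM in those labelled siPRMT7 (SD, n = 4 each), a mean 8.29% lower, which did not pass a two-sided exact permutation test (p = 0.0571, smallest possible 0.0286). FPKM is fragments per kilobase of gene length and per unit of library size. Libraries held 14526030 to 15724862 fragments. KRT8, KRT18, KRT19, EPCAM, CD44, VIM and CAV1 were present and KLK2 and KLK3 were listed at 0 in every library. All 4 leukocyte markers were below 1 FPKM in every library, whereas COL1A1 at 6.76 FPKM and PECAM1 at 3.26 FPKM were detected.

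In the deposited annotation 2 pairs of mitochondrial genes share more than 1 base, and a fragment that lies in the shared stretch cannot be assigned to 1 gene. The genes of each such pair overlap on 1 strand, so values are given per gene and do not describe 2 separate mRNAs. MT-ATP6 and MT-CO3 share the single base 9207. MT-ATP8 and MT-ATP6 share 46 bases of the mitochondrial chromosome (chrMT:8527-8572, GRCh38, plus strand), 22.2% of the 207 bases of MT-ATP8. MT-ND4L and MT-ND4 share 7 bases (10760 to 10766, plus strand), shown here within chrMT:10746-10780. Capitals mark the start codon of the second gene of each pair, inside the first, in the sequences taken from GENCODE release 29 transcripts.
MT-ATP8/MT-ATP6: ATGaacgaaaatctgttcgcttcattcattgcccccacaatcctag
MT-ND4L/MT-ND4: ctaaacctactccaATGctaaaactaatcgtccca

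Mitochondrial genes had far higher FPKM than nuclear genes for the same complexes. All 13 mitochondrial genes and 78 of the 86 nuclear genes reached 1 FPKM in at least 4 libraries and were tested. The median over the tested genes was 1010 FPKM for the mitochondrial set and 21.2 FPKM for the nuclear set, as means over 8 libraries. Gene length here joins all annotated exons, 12268 bases for NDUFS1 with 2235 coding bases, and 1542 of both for MT-CO1. Nuclear levels may be understated where the mRNA is shorter than this length. Within the mitochondrial set MT-CO1, the catalytic subunit of complex IV, was highest at 3544 FPKM and MT-ATP8 lowest at 15.4 FPKM. Within the nuclear set ATP5F1B, the catalytic beta subunit of ATP synthase, was highest at 283 FPKM and NDUFA7 of complex I lowest at 1.01 FPKM. The 13 mitochondrial genes took 1.78% ± 0.199 of fragments in the siCtrl libraries and 1.53% ± 0.078 in the siPRMT7 libraries (SD, n = 4 each). The nuclear members took 0.584% ± 0.0177 and 0.627% ± 0.0672, and 0.597% in the siPRMT7 libraries without replicate 2.

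No respiratory chain member passed the threshold between the groups. Of the 91 members tested, 0 passed at an adjusted p of 0.05 (limma on log2(FPKM + 1), Benjamini-Hochberg over all genes), beside 0.0149% of the 13436 genes tested, which is 2 genes. The smallest adjusted p was 0.260 among the mitochondrial members and 0.243 among the nuclear members. At an unadjusted limma p under 0.05, 5 mitochondrial members were lower and 0 higher, and 10 nuclear members were higher and 1 lower, whereas 7.67% of all genes were higher and 5.49% lower. Both counts depended on single libraries. The mitochondrial count was 9 when siCtrl replicate 1 was left out, 3 when siCtrl replicate 2 was, and 2 when siCtrl replicate 3 was, with 2 again for siCtrl replicate 4. Dropping siPRMT7 libraries gave 6 for replicate 1, 2 for replicate 2, 3 for replicate 3 and 2 for replicate 4. The nuclear count was 34 once siPRMT7 replicate 1 was dropped, 4 for siPRMT7 replicate 2, 3 for replicate 3 and 8 for replicate 4. Dropping siCtrl libraries gave a nuclear count of 4 for replicate 1, 5 for replicate 2, 13 for replicate 3 and 3 for replicate 4. The voom method on rebuilt fragments also called 0 members. The values that follow describe members that did not pass. In RNA of bulk cells, fewer cells of a kind and less RNA per cell cannot be told apart.

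The 2 genomes lay on opposite sides of 0 in the fitted differences. All 13 mitochondrial members were lower in the siPRMT7 libraries, where 50.5% of all tested genes were, with a median log2 fold change of -0.20 and a range from -0.40 to -0.12. Of the 78 nuclear members 70 were higher, where 49.5% of all tested genes were, with a median of 0.12 and a range from -0.19 to 0.38. The median over all genes tested was -0.0015. Without siPRMT7 replicate 2 the nuclear median was 0.049 with 56 of 78 higher, and without siCtrl replicate 4 the mitochondrial median was -0.12 with 13 of 13 lower. On a TPM scale 60 of the 78 nuclear members were higher, and 57 on a TPM scale without the mitochondrial chromosome.

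**Figure D1:**
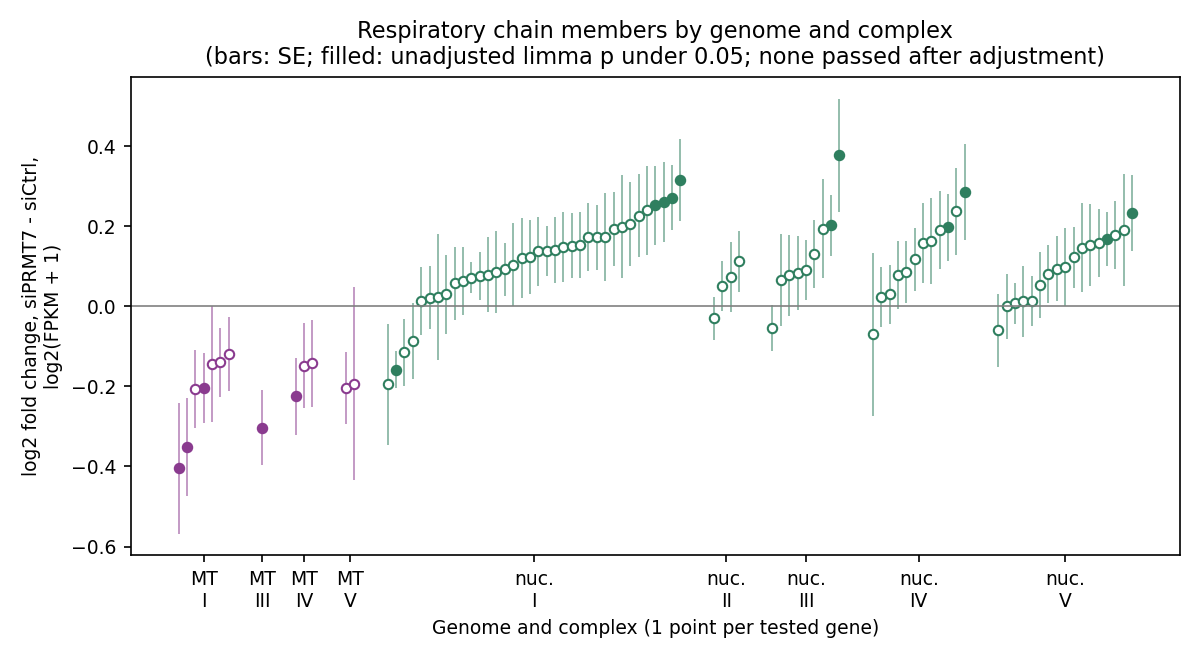
Log2 fold change (siPRMT7 minus siCtrl, on log2(FPKM + 1)) of the 91 tested members, 1 point per gene with its SE, ordered within each genome and complex; filled points have an unadjusted limma p under 0.05. All 13 mitochondrial (MT) points lie below 0 and 70 of the 78 nuclear (nuc.) points lie above it, and none passed after adjustment.

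The 7 mitochondrial complex I subunits form the membrane arm of the enzyme. MT-ND5 (ENSG00000198786, MT 12337 to 14148, plus strand), a large subunit of the proton-pumping arm, had 367, 407, 421 and 519 FPKM in siCtrl replicates 1 to 4 and 377, 276, 344 and 343 FPKM in siPRMT7 replicates 1 to 4. The groups overlapped only through siCtrl replicate 1 and siPRMT7 replicate 1. This gave a log2 fold change of -0.35 (SE 0.12, limma adjusted p = 0.291).

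MT-ND4L (ENSG00000212907, MT 10470 to 10766, plus strand), a small membrane subunit, had 788, 876, 920 and 1141 FPKM in the siCtrl group and 832, 508, 764 and 728 FPKM in the siPRMT7 group. Its low extreme was siPRMT7 replicate 2, and only siPRMT7 replicate 1 lay above any siCtrl value. The fitted log2 difference was -0.40 (SE 0.16, limma adjusted p = 0.348), with the lowest value of any mitochondrial member. For MT-ND4L the value was -0.25 without siPRMT7 replicate 2, and over all settings tried it ranged from -0.49 to -0.15.

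MT-ND4 (ENSG00000198886, MT 10760 to 12137), which follows MT-ND4L on the same strand, had 1764, 1895, 2026 and 2216 FPKM in the siCtrl group and 1878, 1655, 1717 and 1598 FPKM in the siPRMT7 group. Again siPRMT7 replicate 1 was the highest of its group and siCtrl replicate 1 the lowest of the controls, so the groups overlapped. The log2 fold change of MT-ND4 was -0.20 (SE 0.087, limma adjusted p = 0.367).

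MT-ND2, also in the membrane arm, had 951, 1019, 1082 and 1287 FPKM in the siCtrl group and 977, 944, 974 and 847 FPKM in the siPRMT7 group. MT-ND1, which helps to form the ubiquinone site, had 1445, 1589, 1663 and 1849 FPKM against 1570, 1514, 1490 and 1352 FPKM. Both overlapped, with siCtrl replicate 4 the highest library and siPRMT7 replicate 4 the lowest. Their log2 fold changes were -0.21 and -0.14.

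MT-ND3 had 597, 606, 750 and 892 FPKM in the siCtrl group and 621, 770, 608 and 557 FPKM in the siPRMT7 group. MT-ND6, the single subunit gene on the other (minus) strand of the chromosome (14149 to 14673), had 358, 429, 481 and 468 FPKM against 393, 425, 397 and 374 FPKM. In MT-ND6 the siPRMT7 libraries all lay inside the control range, which ran from siCtrl replicate 1 to replicate 3. The log2 fold changes were -0.14 for MT-ND3 and -0.12 for MT-ND6, the nearest to 0 of the 13 genes. How much MT-ND6 RNA the poly(A) selection retained in each library was not tested.

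MT-CYB (ENSG00000198727, MT 14747 to 15887, plus strand) encodes cytochrome b, the only mitochondrial subunit of complex III. It had 797, 875, 926 and 1063 FPKM in the siCtrl group and 806, 709, 751 and 690 FPKM in the siPRMT7 group. Only siPRMT7 replicate 1 reached the lowest control library. The log2 fold change was -0.30 (SE 0.093, limma adjusted p = 0.260), the smallest adjusted p of the mitochondrial genes, and it ranged from -0.39 to -0.21 over the settings tried.

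The 3 mitochondrial subunits of complex IV form its catalytic core. MT-CO1 (ENSG00000198804, MT 5904 to 7445, plus strand) had 3423, 3568, 3781 and 4544 FPKM in the siCtrl group and 3384, 3264, 3249 and 3138 FPKM in the siPRMT7 group. It was the only mitochondrial member whose groups did not overlap, with 4.43% of all tested genes not overlapping and lower, although siPRMT7 replicate 1 and siCtrl replicate 1 lay close together. This gave a log2 fold change of -0.22 (SE 0.096, limma adjusted p = 0.367).

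MT-CO2, which takes electrons from cytochrome c, had 2277, 2233, 2516 and 2803 FPKM in the siCtrl group and 2224, 2545, 2201 and 1911 FPKM in the siPRMT7 group. MT-CO3 had 1208, 1345, 1374 and 1650 FPKM against 1202, 1412, 1312 and 1114 FPKM. In both genes siPRMT7 replicate 2 was the highest library of its group and lay above 3 control libraries. Log2 fold changes were -0.15 for MT-CO2 and -0.14 for MT-CO3.

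MT-ATP6, the proton-channel subunit of ATP synthase, had 1233, 1303, 1439 and 1595 FPKM in the siCtrl group and 1271, 1227, 1226 and 1094 FPKM in the siPRMT7 group, with a log2 fold change of -0.20 (SE 0.091, limma adjusted p = 0.380). MT-ATP8, a small subunit of the same membrane part, had 10.3, 13.6, 19.1 and 23.6 FPKM against 15.2, 9.97, 13.8 and 17.2 FPKM. MT-ATP8 rested on 31 to 71 fragments per library and its groups overlapped widely. Its log2 fold change was -0.19 (SE 0.24), and 0.13 without siCtrl replicate 4 and siPRMT7 replicate 2, so its sign differed between settings.

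**Figure D2:**
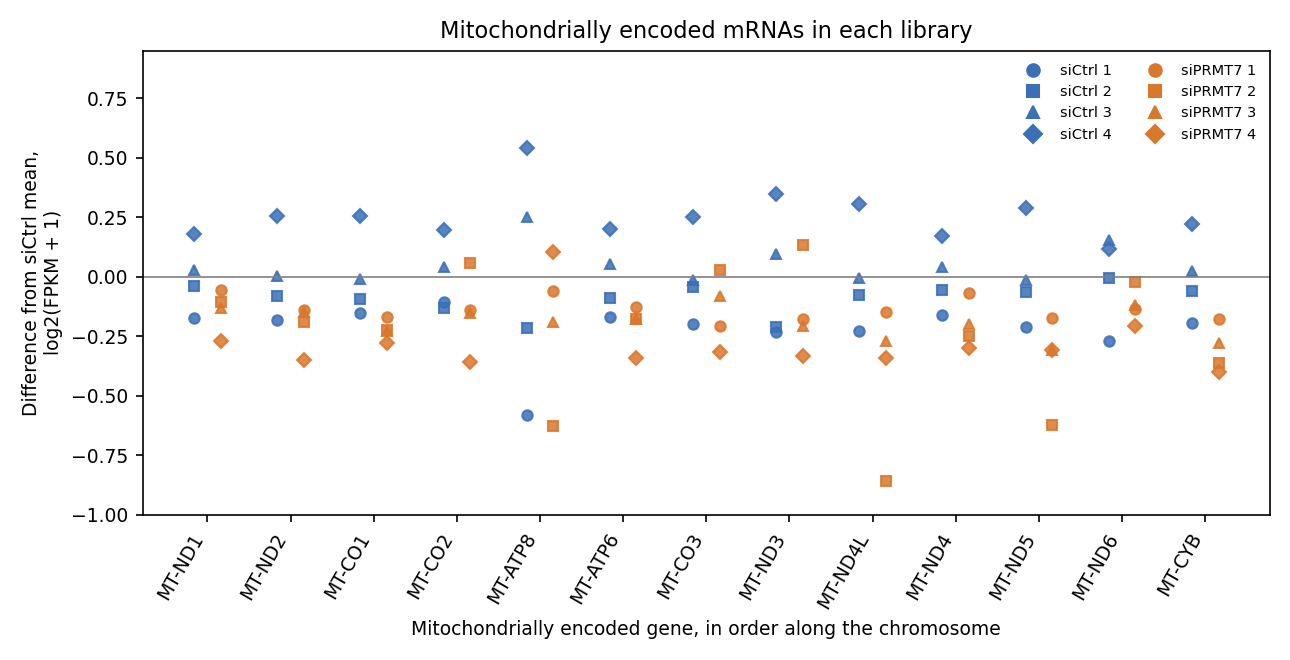
Difference of each library from the siCtrl mean on log2(FPKM + 1) for the 13 mitochondrially encoded genes in chromosome order, with blue siCtrl and orange siPRMT7 points and 1 symbol per replicate number. The siCtrl replicate 4 diamonds are highest for 12 of the 13 genes, and the siPRMT7 replicate 2 squares spread from -0.86 at MT-ND4L to 0.14 at MT-ND3.

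The libraries ranked in much the same way from gene to gene. siCtrl replicate 4 was the highest of the 8 libraries for 12 of the 13 mitochondrial genes, the exception being MT-ND6. siPRMT7 replicate 4 was the lowest for 9, siPRMT7 replicate 2 for 3 and siCtrl replicate 1 for 1. The mean over the 13 genes, as the difference from the siCtrl mean on log2(FPKM + 1), was -0.22, -0.089, 0.051 and 0.26 in siCtrl replicates 1 to 4 and -0.14, -0.25, -0.19 and -0.28 in siPRMT7 replicates 1 to 4. The siPRMT7 libraries thus lay within 0.15 of each other, and siCtrl replicate 1 lay among them. Leaving out siCtrl replicate 4 alone brought log2 fold changes nearer to 0, to -0.14 for MT-CO1, -0.12 for MT-ND2, -0.079 for MT-ND1, -0.082 for MT-CO2, -0.059 for MT-CO3, -0.029 for MT-ND3 and -0.013 for MT-ATP8. siPRMT7 replicate 2 differed most between genes, with a range of 0.99 against 0.15 to 0.50 in the other libraries.

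The 2 mitochondrial rRNAs, made from the same strand as most of the mRNAs, neither passed the test nor shared 1 direction. MT-RNR1, the small-subunit rRNA, was at 599 FPKM in the siCtrl and 619 FPKM in the siPRMT7 group (log2 fold change 0.08, limma adjusted p = 0.821). MT-RNR2, the large-subunit rRNA, was at 2763 and 2559 FPKM (-0.10, limma adjusted p = 0.671). The number of rRNA fragments per mitochondrial mRNA fragment was 0.276, 0.264, 0.272 and 0.292 in the siCtrl libraries and 0.3002, 0.301, 0.296 and 0.310 in the siPRMT7 libraries. Every siPRMT7 value lay above every siCtrl value, by 0.296 against 0.292 at the nearest. This ratio was chosen after the values were seen and carries no test. How much rRNA poly(A) selection retained in each library was not tested.

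Copies of mitochondrial sequence in the nuclear genome can take fragments from these genes. Nuclear pseudogenes named after MT-ND2 held 7.28% of the fragments on that gene and its copies, nearly all of them on MTND2P28, and those of MT-ATP6 held 6.48%, mainly on MTATP6P1. For MT-CO1 the share was 0.324%, and for the remaining 10 genes at most 0.103%. For MT-ND2 the share ran from 6.98 to 7.93% in the siCtrl and 6.24 to 7.29% in the siPRMT7 libraries. The levels of MT-ND2 and MT-ATP6 are therefore uncertain. These shares hold only fragments that the counting assigned to a copy. Fragments that match a gene and a copy equally cannot be seen in them. A share thus sets no bound on the uncertainty, and a low share does not show that a gene is unaffected.

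The nuclear subunits of complex I make up its peripheral arm, the NADH-oxidising part, and the supernumerary subunits around the core. Of 36 tested, 32 were higher (median log2 fold change 0.13), and 4 were lower. NDUFS1 (ENSG00000023228, chromosome 2, 206114817 to 206159603, minus strand), the large iron-sulfur subunit of the peripheral arm, had 8.04, 8.47, 8.36 and 8.87 FPKM in the siCtrl group and 7.43, 7.14, 7.85 and 7.40 FPKM in the siPRMT7 group. Its groups did not overlap, with the siPRMT7 libraries lower. The fitted log2 difference was -0.16 (SE 0.047, limma adjusted p = 0.243), opposite to most nuclear members, and it stayed negative, between -0.21 and -0.081, over the settings tried.

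NDUFC1 (ENSG00000109390, chromosome 4, 139266880 to 139302551, minus strand), a supernumerary membrane-arm subunit, had 15.1, 15.0, 15.9 and 15.3 FPKM in the siCtrl group and 16.6, 22.3, 18.8 and 17.6 FPKM in the siPRMT7 group. NDUFC1 did not overlap, with every siPRMT7 library higher; 4.14% of all tested genes did so in that direction. The log2 fold change was 0.27 (SE 0.080, limma adjusted p = 0.244).

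NDUFB2 (chromosome 7, 140690777 to 140722790, plus strand), another supernumerary membrane-arm subunit, had 8.62, 7.97, 9.79 and 8.46 FPKM in the siCtrl group and 8.78, 12.5, 11.2 and 12.2 FPKM in the siPRMT7 group. Only siPRMT7 replicate 1 lay within the control range. This gave a log2 fold change of 0.32 (SE 0.10, limma adjusted p = 0.286). NDUFB7, the most abundant nuclear complex I mRNA at 144 FPKM, had 124, 128, 145 and 125 FPKM against 129, 178, 168 and 152 FPKM, with a log2 fold change of 0.25.

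Complex II, succinate dehydrogenase, has no mitochondrially encoded subunit, and 3 of its 4 genes were higher with a median of 0.062. SDHB, the iron-sulfur subunit, had 31.7, 30.2, 31.4 and 29.9 FPKM in the siCtrl group and 29.1, 38.3, 34.9 and 31.8 FPKM in the siPRMT7 group (log2 fold change 0.11, SE 0.076, limma adjusted p = 0.524). The siPRMT7 libraries spread to both sides of the controls, from replicate 1 below them to replicate 2 above. SDHA, the flavoprotein, and SDHD, a membrane anchor, had log2 fold changes of 0.051 and 0.074. SDHC, the other anchor, had -0.030.

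Complex III passes electrons to cytochrome c, and 8 of its 9 nuclear genes were higher, with a median of 0.091. UQCR10 had 43.1, 43.9, 43.1 and 40.4 FPKM in the siCtrl group and 43.8, 54.2, 54.2 and 45.4 FPKM in the siPRMT7 group. Its log2 fold change was 0.20 (SE 0.075, limma adjusted p = 0.315), and siPRMT7 replicates 2 and 3 stood above the rest. UQCRHL had 2.19, 1.92, 2.03 and 1.52 FPKM against 3.19, 2.38, 2.05 and 3.71 FPKM, a log2 fold change of 0.38 that was the largest of the nuclear set. UQCRHL is a near-identical copy of UQCRH and rested on 48 to 118 fragments per library, so its value is uncertain. UQCRQ, a small ubiquinone-binding subunit, had a log2 fold change of 0.19. The abundant core subunit UQCRC1 was at 64.8 ± 1.76 and 69.3 ± 7.92 FPKM (SD, n = 4 each).

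Nuclear subunits of complex IV surround its mitochondrial core, and 11 of 12 tested were higher, with a median of 0.14. COX5B had 49.9, 53.5, 57.4 and 53.6 FPKM in the siCtrl group and 54.2, 84.4, 67.8 and 59.2 FPKM in the siPRMT7 group (log2 fold change 0.29, SE 0.12, limma adjusted p = 0.364). The difference was carried most by siPRMT7 replicate 2, and siPRMT7 replicate 1 lay within the controls. COX8A, the most abundant nuclear complex IV mRNA, was at 231 ± 16.5 and 275 ± 44.6 FPKM (SD, n = 4 each), a log2 fold change of 0.24. COX7A2 was at 21.5 ± 1.32 and 24.9 ± 2.88 FPKM, a log2 fold change of 0.20.

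Among the paralogs of complex IV the widely expressed form was the abundant one in each pair. Averaged over 8 libraries, COX6A1 was at 67.7 FPKM, whereas COX6A2, the heart and muscle form, had 0 fragments in all 8 libraries, which allows at most 0.347 to 0.382 FPKM per library at a floor of 3 fragments. COX6B2, the testis form, had 6 to 15 fragments per library beside COX6B1 at 74.4 ± 5.91 FPKM in the siCtrl libraries, and COX7A1, the muscle form, had 2 to 10 fragments beside COX7A2. COX8C had 0 to 11 fragments and NDUFA4L2, a relative of NDUFA4, 12 to 28. COX7B2 was an exception to near absence at 2.99 FPKM, beside COX7B at 21.0 ± 0.538 FPKM in the siCtrl libraries. COX7A2L, which acts in supercomplex assembly, was at 12.3 ± 0.725 FPKM in the siCtrl libraries. NDUFA4 was at 27.9 ± 2.47 FPKM in the same libraries. These floors cover counting error only. COX6B2 shares 100% of its coding bases with exons of another gene on the same strand, so its level is uncertain.

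ATP synthase had 16 of 17 tested nuclear members higher, with a median of 0.099. ATP5F1D, the delta subunit of the rotor, had 39.6, 39.5, 38.6 and 37.7 FPKM in the siCtrl group and 41.7, 50.4, 43.8 and 39.9 FPKM in the siPRMT7 group. Its groups did not overlap, although siPRMT7 replicate 4 lay just above siCtrl replicate 1. The fitted log2 difference was 0.17 (SE 0.068, limma adjusted p = 0.351).

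ATP5MF, a small membrane subunit, was at 23.8 ± 1.83 and 28.3 ± 3.72 FPKM (log2 fold change 0.23). ATP5F1E, the epsilon subunit, was at 22.0 ± 1.39 and 25.2 ± 3.06 FPKM (0.18). ATP5F1B, the most abundant nuclear member, was at 282 ± 6.51 and 284 ± 16.6 FPKM (SD, n = 4 each), with a log2 fold change of 0.0075 and a 95% interval from -0.11 to 0.13. The genes ATP5MC1, ATP5MC2 and ATP5MC3, which encode the same mature c-ring protein, were at 18.5 ± 1.54, 21.6 ± 0.881 and 16.5 ± 0.528 FPKM in the siCtrl group and 20.7 ± 3.53, 21.7 ± 2.83 and 17.3 ± 2.36 FPKM in the siPRMT7 group. No one of these 3 genes dominated.

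Where a complex draws on both genomes, the mitochondrial mean can be set against the nuclear mean in the same library. For complex I this difference, relative to the siCtrl mean, was -0.19, -0.068, 0.0081 and 0.25 in siCtrl replicates 1 to 4 and -0.098, -0.57, -0.33 and -0.33 in siPRMT7 replicates 1 to 4. Its siPRMT7 mean was -0.33, beside -0.43 for complex III, -0.30 for complex IV and -0.30 for complex V. In each complex siPRMT7 replicate 1 lay within the control range, in complex V siPRMT7 replicates 3 and 4 did too, and siPRMT7 replicate 2 was the lowest library. Leaving out siCtrl replicate 4 gave -0.25, -0.35, -0.20 and -0.16 for complexes I, III, IV and V, and leaving out siPRMT7 replicate 2 gave -0.25, -0.35, -0.26 and -0.15. With both left out, an alternative chosen after the data were seen, the values were -0.17, -0.27, -0.16 and -0.021. The complexes were not tested against each other.

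**Figure D3:**
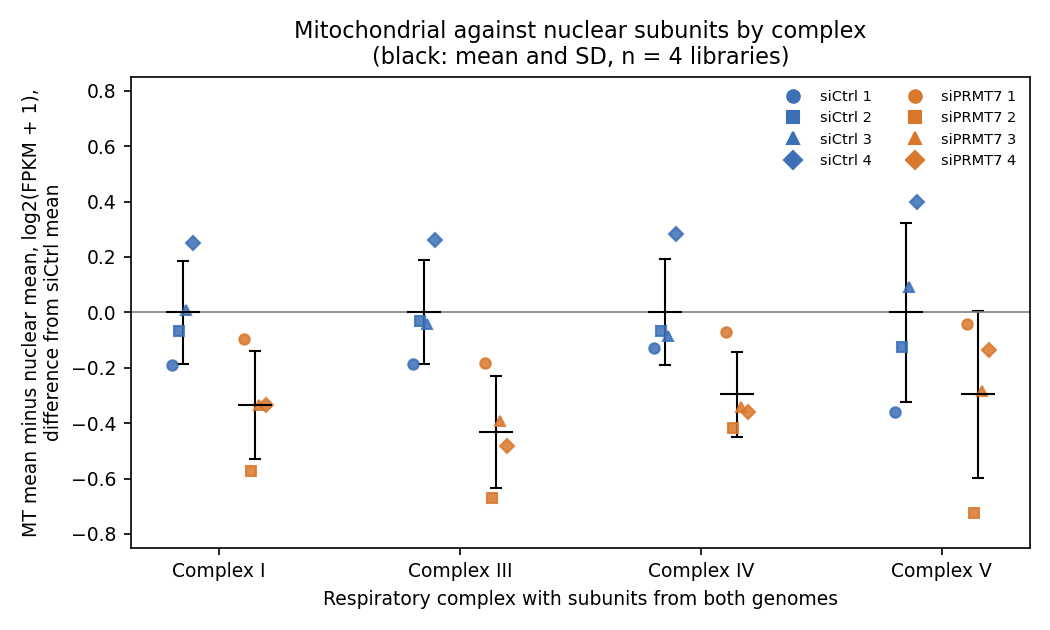
Mean of the mitochondrial members minus mean of the nuclear members of the same complex, on log2(FPKM + 1) and relative to the siCtrl mean, for each library, with the group mean and SD (n = 4) in black. The siPRMT7 means lie between -0.43 and -0.30, siPRMT7 replicate 1 stays within the control range in all 4 complexes, and siCtrl replicate 4 is the highest library in each.

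Most nuclear members were highest in the same library. siPRMT7 replicate 2 was the highest of the 8 libraries for 71 of the 78 tested nuclear members. The nuclear mean, relative to the siCtrl mean, was -0.015, -0.016, 0.055 and -0.024 in the siCtrl libraries and -0.044, 0.31, 0.13 and 0.035 in the siPRMT7 libraries. Leaving out siPRMT7 replicate 2 alone gave log2 fold changes of 0.17 for COX5B, 0.14 for COX8A, 0.10 for ATP5F1D, 0.11 for ATP5F1E, 0.072 for UQCRQ, 0.048 for SDHB, 0.014 for SDHA and 0.011 for SDHD. Cytosolic ribosomal protein genes, 78 of them tested, were at -0.033, -0.047, 0.091 and -0.011 in the siCtrl and -0.062, 0.36, 0.17 and 0.038 in the siPRMT7 libraries. The 2 sets thus ordered the siPRMT7 libraries alike. With the ribosomal protein level as a covariate the nuclear median was 0.0073, with 42 of 78 higher, and the mitochondrial median -0.23 with 13 of 13 lower.

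**Figure D4:**
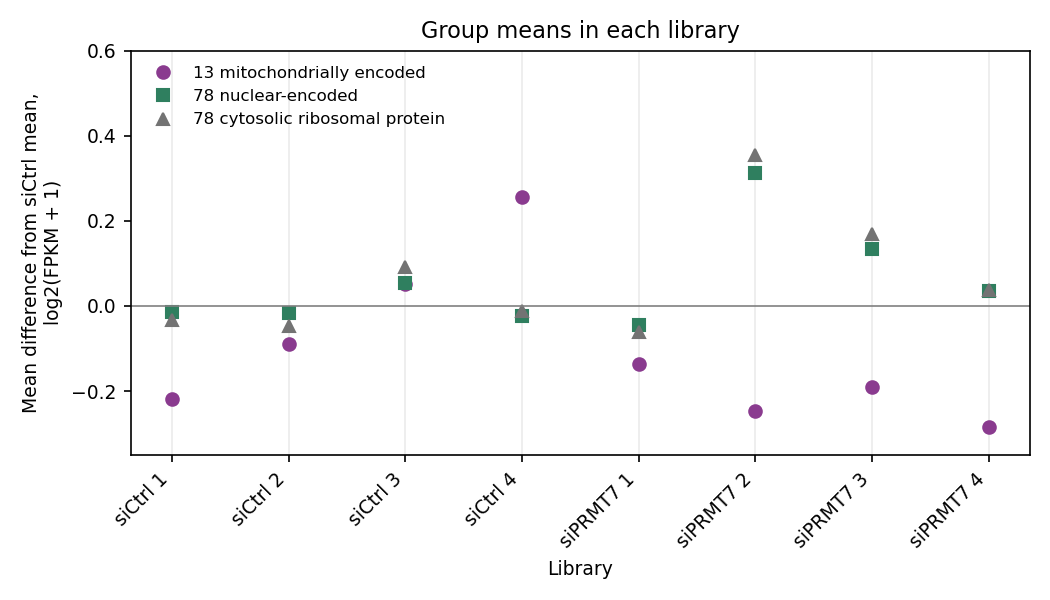
Mean difference from the siCtrl mean on log2(FPKM + 1) in each library for the 13 mitochondrial members, the 78 tested nuclear members and 78 cytosolic ribosomal protein genes. Nuclear members and ribosomal protein genes peak together in siPRMT7 replicate 2 (0.31 and 0.36), while the mitochondrial mean is -0.25 there.

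Gene length also went with the nuclear values. Across the 78 tested nuclear members, log2 fold change and gene length had a Spearman rho of -0.37, and -0.27 without siPRMT7 replicate 2. Those genes share the same 8 libraries, so the value is a description. In siPRMT7 replicate 2 the other tested genes below the lower quartile of length lay at 0.083 and those above the upper quartile at -0.16. The median length was 2468.5 bases for these members and 4332.5 bases for all genes tested. With each library's trend on length removed the nuclear median was 0.081 with 61 of 78 higher, and the mitochondrial median -0.27. The part of library, ribosomal protein level and length in the differences was not tested beyond these fits.

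Several nuclear members share coding bases with exons of another gene on the same strand, where a fragment cannot be assigned to 1 gene. How the counting treated such fragments is not given in the notes. Measured over coding bases, 11 tested nuclear members shared at least 50% and had a median of 8.87 FPKM, 5 of them under 3 FPKM. The other 67 had a median of 22.9 FPKM, 3 of them under 3 FPKM. These shares cover the same strand only, and the use of strand in counting is not given. Over either strand NDUFS7, at 2.79 FPKM, shares 48.5%, NDUFB2 45.2% and ATP5ME 44.0%, and these are among the 67. In complex I, NDUFB8, NDUFV2, NDUFA7, NDUFA9, NDUFA13 and NDUFC2 had a median of 1.42 FPKM and the other 30 had 18.7 FPKM. In complex V the 2 members past 50% had a median of 9.85 FPKM and the other 15 had 25.6 FPKM, and in complex III the 1 such member, UQCR11, was at 10.7 FPKM beside a median of 32.8 FPKM for the other 8.

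NDUFV2, a core subunit of the NADH-oxidising module that shares 84.7% of its coding bases, was at 1.12 FPKM, and NDUFB8, sharing 85.2%, was at 2.41 FPKM. Complex IV went the other way, since COX8A shares 55.1% and was at 253 FPKM, and COX6A1 shares 53.5% and was at 67.7 FPKM. Measured first over whole exons, 0 tested nuclear members shared 50%, so the coding measure and both thresholds were chosen after the values were seen. NDUFC2-KCTD14, which shares 100%, had 0 fragments in every library, and the read-through gene ATP5MF-PTCD1, sharing 98.2%, had 0 to 6. COX6B2, sharing 100%, had 6 to 15. Levels of members that share coding bases are therefore uncertain. NDUFA7, NDUFA13 and NDUFV2, 3 of the 4 lower complex I genes, are among them. ATP5MGL, which also had 0 fragments in every library, shares 0 coding bases. Level also went with exonic length, with a Spearman rho of -0.49 over the 78 tested nuclear members. Against the percent of exonic bases shared on the same strand the rho was -0.29. The part of each in the low levels was not tested.

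**Figure D5:**
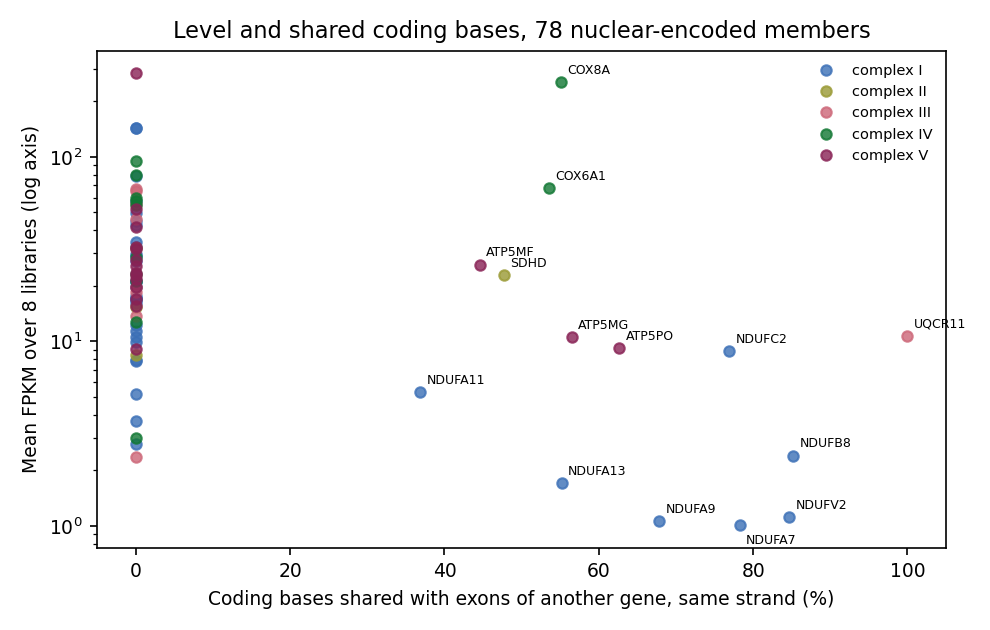
Mean FPKM over 8 libraries (log axis) against the share of coding bases that lie in exons of another gene on the same strand, for the 78 tested nuclear members, coloured by complex. The complex I genes at 50% or more lie between 1.01 and 8.87 FPKM, while COX8A and COX6A1 of complex IV lie at 253 and 67.7 FPKM.

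Promoters of nuclear respiratory genes are known for sites of NRF1, a transcription factor named for this role, and of ETS factors such as GABP. RefSeq promoter windows on GRCh38.p14, from 250 bases before to 50 after the start site, were found for 70 of the 86 nuclear members. The NRF1 motif was GCGCA, then any base, then GCGC, searched on both strands. It was in 17 of the 70 (24.3%), beside 9.67% of the 15843 protein-coding genes with a RefSeq window. That background, used for both motifs, was not restricted to genes expressed in these libraries, and the difference in share was not tested. The ETS motif CCGGAAG, also on both strands, was in 20 (28.6%), beside 16.5%, and 3 windows held both. Examples from complexes I, II and V, upstream of the gene and with the NRF1 match in capitals, show where the searched letters lie, and their likeness is set by the search: NDUFA3 (chr19:54102660-54102719, plus), NDUFB4 (chr3:120596152-120596211, plus), SDHA (chr5:218129-218188, plus) and ATP5ME (chr4:674461-674520, minus).
NDUFA3: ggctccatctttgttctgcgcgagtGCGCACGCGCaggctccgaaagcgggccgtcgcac
NDUFB4: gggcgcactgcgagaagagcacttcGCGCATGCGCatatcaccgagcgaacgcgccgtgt
SDHA: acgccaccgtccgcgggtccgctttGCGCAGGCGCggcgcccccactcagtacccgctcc
ATP5ME: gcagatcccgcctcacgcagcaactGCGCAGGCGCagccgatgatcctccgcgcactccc

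Members with and without the NRF1 match are set side by side, and the difference between them was not tested. Of 16 tested members with a match 15 were higher, with a median of 0.099, and of 49 without a match 43 were higher, with a median of 0.12. NDUFA3, with a match, had 9.23, 11.1, 12.4 and 11.5 FPKM in the siCtrl group and 11.3, 14.8, 14.1 and 13.4 FPKM in the siPRMT7 group. A match is a description of the letters and not of binding, and the motifs were chosen after the values were seen.

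Genes that supply or regulate the chain were read from lists kept apart from the members, and 0 genes of any list passed. Of the subunits outside the symbol pattern, 5 of 6 were tested and all 5 were higher, with a median of 0.11. COX4I1, the large nuclear subunit of complex IV, was at 65.2 ± 3.74 and 73.0 ± 8.81 FPKM, ATP5IF1, the ATP synthase inhibitor, at 17.6 ± 2.59 and 20.9 ± 2.81 FPKM, and CYC1, cytochrome c1, at 131 ± 6.61 and 140 ± 9.53 FPKM (SD, n = 4 each).

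Genes of mitochondrial DNA expression and RNA processing were nearer to an even split, with 22 of 32 tested higher and a median of 0.018. PNPT1, a subunit of the mitochondrial RNA-degrading complex, had 21.9 ± 0.559 and 24.3 ± 1.48 FPKM (log2 fold change 0.14, limma adjusted p = 0.291). MTERF2 had 2.71 ± 0.187 and 3.22 ± 0.180 FPKM (0.19, limma adjusted p = 0.286). SLIRP, which stabilises mitochondrial mRNAs with LRPPRC, had 13.5 ± 1.16 and 16.01 ± 2.49 FPKM (0.23).

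Assembly factors had 30 of 44 tested entries higher, with a median of 0.063. SCO2 appears under 2 identifiers among the 48 entries of the list, and neither is among the 44 tested. SDHAF1, an assembly factor of complex II, was at 11.5 ± 0.988 and 14.2 ± 2.28 FPKM, ECSIT, of complex I, at 28.8 ± 1.18 and 33.2 ± 3.60 FPKM, and SURF1, of complex IV, at 10.3 ± 1.17 and 12.2 ± 1.30 FPKM.

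Regulators of respiratory genes had 8 of 10 tested lower, with a median of -0.057, and among them NRF1 was at 4.54 ± 0.330 and 4.14 ± 0.0492 FPKM (log2 fold change -0.11, limma adjusted p = 0.428). PPARGC1B was at 1.08 ± 0.124 and 0.857 ± 0.164 FPKM, and GABPB1, a GABP subunit, at 4.54 ± 0.191 and 4.22 ± 0.321 FPKM. The tricarboxylic acid cycle, which feeds electrons to the chain, had 6 of 14 genes higher and a median of -0.015. CS, citrate synthase, was at 31.4 ± 0.642 and 29.5 ± 0.825 FPKM (-0.088, limma adjusted p = 0.365), FH, fumarase, at 79.5 ± 2.68 and 74.6 ± 2.23 FPKM and IDH3A at 6.36 ± 0.634 and 5.71 ± 0.435 FPKM (SD, n = 4 each).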

How the data were processed

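The deposited values are FPKM, computed by the authors from fragments counted per gene. Per the submitters' processing notes, trimming, alignment and counting tools were cutadapt 2.5, HISAT2 2.1.0 and featureCounts 1.6.3. A mouse build is named there too, yet every identifier is human, and coordinates and exonic lengths of all 99 members match GENCODE release 29 on GRCh38. The use of strand in counting is not stated in those notes or the labels. Fragments were rebuilt from FPKM, gene length and each library's step, and 100% of values were whole within 0.01 fragments. Groups came from sample titles.

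Genes reaching 1 FPKM in at least 4 libraries, 13436 in all, were tested on log2(FPKM + 1) by limma 3.58.1 (R 4.3.3) with its trend option, two-sided. P-values were adjusted by Benjamini-Hochberg over all of them at a threshold of 0.05. Fold changes of low genes are understated on this scale. The test was checked on simulated counts drawn independently for each gene and library. Those counts held no shift shared by the genes of a library, so the check does not cover such shifts. Members, gene lists, motifs and settings were chosen with earlier results of these data known. Named genes were all mitochondrial members, the 3 smallest p and the highest level per nuclear complex, paralog sets, and from each other list the 3 smallest p. Alternatives were other pseudocounts, filters, scalings, variance models and covariates, a replicate block and leaving out each library. Sequences are from GENCODE transcripts and RefSeq. One marker gene is not reported here.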

Additional observations from a re-analysis of the deposited data

Results flagged for a closer look

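Of 116 groups of 4 libraries examined for 1 value standing apart from the other 3, 4 had such a value, where chance gives about 1 in 20, or 5.8. COX7B2 in the siCtrl libraries had its lowest value, 2.90 FPKM, in replicate 4, with the other 3 between 3.02 and 3.04 FPKM. The mean of the nuclear members among the siCtrl libraries had its highest value in replicate 3, 0.0548 above the siCtrl mean on log2(FPKM + 1). The mean of nuclear complex V among the siCtrl libraries was also highest in replicate 3, at 0.0620. The mitochondrial minus nuclear mean of complex IV was highest in siCtrl replicate 4, at 0.284.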

How the results depend on the processing

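Of the alternatives run, all called 0 members, and the mitochondrial and nuclear medians and the difference between genomes in each complex kept their sign. Over leaving out 1 library, the mitochondrial median ran from -0.26 to -0.12 and the nuclear median from 0.049 to 0.16. Mitochondrial members lower at an unadjusted p under 0.05 numbered 2 to 9, and nuclear members higher 3 (without siCtrl replicate 4) to 34 (without siPRMT7 replicate 1). Genes called over the whole table numbered 58 with library weights, 42 with the length trend removed, 26 with the ribosomal protein covariate, 12 with voom, 5 with no filter and 0 to 4 with 1 library left out, against 2 in the fit reported; the higher filter, quantile normalization and the smaller pseudocount each gave 1 and a TPM scale 3. MT-ATP8 rested on 31 to 71 fragments per library, beside 10882 to 15757 for MT-ATP6, which shares 46 bases with it. The cause of this low count was not tested, so its FPKM may not show the level of its mRNA.

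Same-number correlations of deviations were -0.031, -0.013, 0.045 and 0.061, and those between different numbers ran from -0.122 to 0.131. Such values cannot show whether libraries of the same number were handled together. With a replicate block, 0 genes of the table and 0 members were called, with 3 mitochondrial members lower and 16 nuclear members higher at an unadjusted p under 0.05.

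Of 41 tested named genes, 13 changed sign of log2 fold change in at least 1 alternative, and the cause was not tested. Without siCtrl replicate 4 and siPRMT7 replicate 2, chosen after the data were seen, values were 0.131 for MT-ATP8, -0.00980 for SDHD, -0.0316 for ATP5F1B, -0.103 for ATP5MC2, -0.0313 for ATP5MC3, -0.00245 for COX7A2L, -0.0115 for COX7B, -0.00682 for NDUFA4 and -0.0566 for NDUFC2. With the ribosomal protein level as covariate they were -0.0488 for SDHD, -0.0238 for SDHA, -0.0102 for UQCRC1, -0.0501 for ATP5F1B, -0.0115 for ATP5MC1, -0.101 for ATP5MC2, -0.0609 for ATP5MC3, -0.0217 for COX7A2L, -0.0621 for COX7B, -0.00723 for NDUFA4 and -0.0754 for NDUFC2. On a TPM scale they were -0.0336 for ATP5F1B, -0.0392 for ATP5MC2, -0.0169 for COX7B and -0.00752 for NDUFC2. Without the mitochondrial chromosome on that scale they were -0.00771 for SDHA, -0.0551 for ATP5F1B, -0.0598 for ATP5MC2, -0.00610 for ATP5MC3, -0.0375 for COX7B and -0.0270 for NDUFC2. With the length trend removed they were -0.0654 for ATP5F1B, -0.0185 for ATP5MC2, -0.0253 for COX7B and -0.0310 for NDUFC2. With library weights they were -0.00470 for ATP5F1B, -0.0554 for ATP5MC2 and -0.0460 for NDUFC2. With quantile normalization they were -0.0284 for ATP5F1B, -0.0253 for ATP5MC2 and -1.94e-05 for COX7B. With voom the value was -0.000311 for ATP5MC2. Leaving out 1 library, or both of those named, gave ranges of -0.386 to 0.131 for MT-ATP8, -0.00980 to 0.149 for SDHD, -0.0316 to 0.0355 for ATP5F1B, -0.103 to 0.0491 for ATP5MC2, -0.0313 to 0.114 for ATP5MC3, -0.00245 to 0.143 for COX7A2L, -0.0258 to 0.0802 for COX7B, -0.289 to 0.115 for COX7B2, -0.00682 to 0.126 for NDUFA4 and -0.0710 to 0.0909 for NDUFC2.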
